A study of Drosophila melanogaster with 33 samples.

Results

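Cytoplasmic ribosomal protein genes were followed through l(3)mbt mutant larval brains, the tumours grown from them and wild type of the fruit fly Drosophila melanogaster. The members are all genes whose symbol starts with RpL or RpS in the array annotation and that have a probe set annotated to them alone. This rule gave 41 genes of 11982, of which 25 carry the RpL prefix of the large subunit and 16 the RpS prefix of the small subunit. The RefSeq gene table lists 92 symbols of this form, and the other 51, among them RpS19a and RpL22, had no probe set of their own in the annotation and were not analysed here. Of the 41 members, 26 have a plain symbol and 15 a copy suffix, which marks a paralog (a, b, -1, -2) or a relative (-like). Genes above 4 on the log2 scale in 3 or more arrays were tested, which kept 36 of the 41 members.

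The l(3)mbt product binds chromatin, and larval brains without it overgrow. Total RNA of 9 groups was measured on Affymetrix arrays for Drosophila. Tumours of ts1 origin that had been kept by transplantation into adult flies were taken at culture round 1, round 5 and round 10, with 3 arrays each. Larval brains homozygous for the ts1 allele were raised at 29 °C (6 arrays) or at 17 °C (3 arrays). Larval brains of the ts1/E2 transheterozygote were raised at 29 °C (3 arrays), and larval brains homozygous for the E2 allele at 29 °C or 17 °C (3 arrays each). The reference was the strain w1118, called WT here (6 arrays), for which the labels give no temperature. The arrays came from 2 experimentation sites. EMBL held 3 arrays of ts1 brains at 29 °C, those at 17 °C and 3 WT arrays, and IRB Barcelona held the other 24 arrays. The labels do not say whether arrays of a group hold separate pools of animals or separate tumour lines, nor the temperature of the hosts.

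Each cytoplasmic ribosome carries a small subunit that reads the mRNA and a large subunit that joins amino acids, and every growing cell makes their proteins in near-equal amounts. Most of the genes are active in all cells, and flies that lose 1 copy of many of them are Minute, with slow growth and thin bristles. Several fly ribosomal protein genes have a paralog that is used mainly in the ovary or testis, among them RpS5b, RpS19b, RpS10a, RpS28a and RpL22-like. RpL7-like, RpL24-like and RpLP0-like are related to yeast proteins that hold a place in the ribosome during its assembly and leave before it is finished.

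The deposited values are log2 values on the GCRMA scale. On 3 arrays the probe set for the 5′ end of the eIF4a transcript stood far below that for the 3′ end, by −11.96 in E2 brains at 29 °C replicate 1, −5.25 in ts1 brains at 17 °C replicate 2 and −4.95 in ts1 brains at 29 °C replicate 3. The other 30 arrays lay at −2.38 or above. Of the 41 members, 33 had their lowest value on 1 of these 3 arrays. The share over all tested genes was not counted for the 3 arrays together. Replicate 1 of E2 at 29 °C was the lowest array for 31.7% of members and for 30.3% of all tested genes. The WT means of the sites were equal to within 6.7e-09 for every probe set, a step done before deposition, so comparisons were made within a site. The probe set of the mutated gene, l(3)mbt, did not pass the test against WT in any brain group, and it was higher in round-5 tumours by 1.45 ± 0.53 (SE, limma adjusted p = 0.0364) and in round-10 tumours by 1.58 ± 0.53 (adjusted p = 0.0233). Which part of the gene this probe set reads, relative to the alleles, was not tested. The labelled tissue was checked on neuron and glia markers. Over 5 neuron genes the mean log2 level ran from 6.45 to 8.14 in tumours, 8.04 to 10.44 in mutant brains and 9.82 to 10.44 in WT. Over 5 glia genes it ran from 6.56 to 7.31 in tumours, 8.76 to 10.90 in mutant brains and 10.28 to 10.62 in WT. Larval fat body and hemocyte markers also differed between the groups. Over 3 larval fat body genes the mean level ran from 3.17 to 7.51 in tumours, 3.65 to 11.56 in mutant brains and 8.30 to 11.46 in WT, and all 3 were called lower in round 1 and round 10, in ts1 brains at 29 °C of IRB and in E2 brains at 29 °C against 17 °C. Of 6 hemocyte genes, NimC1 and Hml were called higher and Pxn lower in every tumour round. In rounds 1, 5 and 10, 12.7%, 12.9% and 12.3% of all genes were called higher and 14.3%, 13.7% and 13.5% lower. The WT means of NimC1 and Hml, 2.72 and 2.74, are near background, so their calls rest on the tumour values. The part of these cells in the values of the members was not tested. In bulk RNA, fewer cells of a type and less RNA per cell cannot be told apart.

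The genes of the general ribosome stayed within a narrow band in every tissue. Of the 26 members with a plain symbol, 25 averaged over 13 on the log2 scale, and RpL27 averaged 12.60. These values are those of probe sets and do not rank the genes by RNA amount. The distance between the highest and the lowest of the 11 group-by-site means had a median of 0.53 over these 26 genes, from 0.15 for RpL15 to 1.07 for RpL32, both large-subunit proteins. Over all 8264 tested genes that distance had a median of 1.77. Other genes with a mean over 13 had nearly the same range, with a median of 0.54 over 46 genes. All these means include the 3 arrays with the weak 5′ signal, and the ranges were not computed without them. The lowest mean of RpL32, in ts1 brains at 17 °C, came from values of 13.84, 11.89 and 14.14. The value of 11.89 was on replicate 2, an array with the weak 5′ signal. Whether signal near the top of the scale holds differences down was not tested. The copies RpL10Ab, RpL37-1 and RpS28b lay in the same band, with means of 14.06, 13.79 and 14.33.

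**Figure D1:**
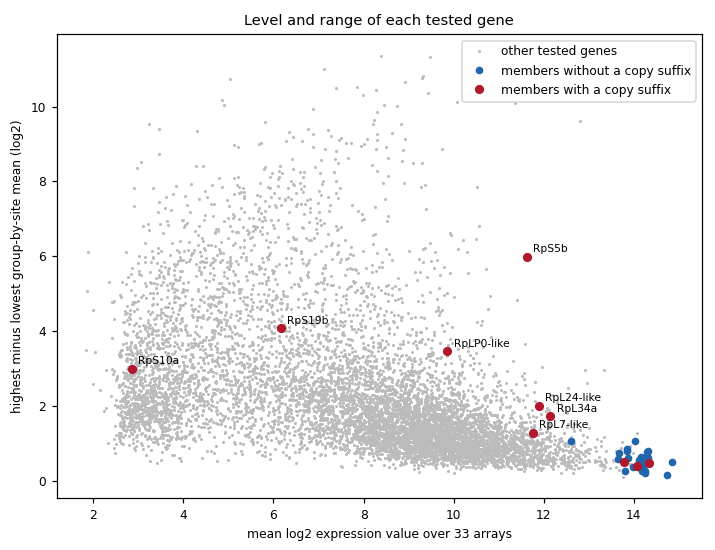
Each point is a tested gene, by its mean log2 value over 33 arrays (horizontal) and the distance between its highest and lowest group-by-site mean (vertical, log2). Members with a plain symbol (blue) lie between means of 12.60 and 14.86 with ranges up to 1.07, and the members with a copy suffix (red) that exceed a range of 1 are named. The ranges include the 3 arrays with the weak 5′ signal, such as E2 brains at 29 °C replicate 1, where RpLP0-like was at 2.98.

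The median of the 26 genes on each array ran from 14.24 to 14.32 in the 9 tumour arrays, against 14.05 to 14.19 in the 6 WT arrays, so these groups did not overlap. Against WT the difference was positive for 25 of 26 genes in round-1 tumours (median 0.13), for 24 in round 5 (median 0.14) and for 23 in round 10 (median 0.12), and the medians over all tested genes were −0.01, 0.09 and 0.09. After quantile normalization the counts were 18, 15 and 17, and with each array centred on its median they were 25, 20 and 19, so the split depends on the scaling. Between round-1 tumours and the ts1 brains at 29 °C of the same site, 25 of 26 differences were positive (median 0.14), and 18 and 7 under these scalings. The largest positive difference from WT in round-1 tumours was that of RpL37A, a zinc-binding large-subunit protein, whose mean was 14.26 in round-1 tumours against 13.89 in WT. It passed the adjusted p in round 1 (0.37 ± 0.13, adjusted p = 0.0281), round 5 (0.37 ± 0.13, adjusted p = 0.0297) and round 10 (0.35 ± 0.13, adjusted p = 0.0381), at a size far under a log2 difference of 1. Of 17 alternatives for each, 10, 10 and 9 kept RpL37A under 0.05 in rounds 1, 5 and 10, with adjusted p up to 0.0948, 0.179 and 0.24. Both scalings ended it in every round. In rounds 1, 5 and 10 the adjusted p was 0.0514, 0.0833 and 0.0842 after quantile normalization, and 0.0598, 0.179 and 0.24 after centring. Leaving out WT replicate 1 or 2, or any 1 of the 3 tumour arrays of the round, also ended it in every round, as did WT replicate 3 in round 10.

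In mutant brains the general genes lay nearer to WT or depended on single arrays. In the ts1/E2 brains at 29 °C the array medians of the 26 genes were 14.22, 14.24 and 14.27, all above the 6 WT arrays, and 16 of the 26 differences from WT were positive. That count was 12 after quantile normalization and 25 after centring. In E2 brains at 29 °C the array medians were 13.55, 14.18 and 14.25, and the lowest belonged to replicate 1, the array with the weak 5′ signal. Those of ts1 brains at 17 °C were 14.15, 13.56 and 14.27, and again the lowest was the array with the weak 5′ signal, replicate 2. Those of ts1 brains at 29 °C were 14.09, 14.15 and 14.05 at IRB, and 14.19, 14.27 and 13.80 at EMBL, where replicate 3 had the weak 5′ signal. Over all 41 members the median difference from WT was −0.12 in ts1 brains at 17 °C and 0.09 without replicate 2, and it was −0.08 in E2 brains at 29 °C and 0.00 without replicate 1. E2 brains at 17 °C had array medians of 14.14, 14.12 and 14.04. Relative to WT, 6 of the 26 differences were positive in E2 brains at 29 °C, 9 in E2 brains at 17 °C, 12 in ts1 brains at 29 °C of IRB and 6 in ts1 brains at 17 °C. Quantile normalization gave 13, 8, 14 and 12 in that order and centring 17, 20, 24 and 4, where all tested genes had a median of −0.20 in E2 brains at 29 °C and −0.14 in ts1 brains of IRB before scaling. Of the 25 plain symbols other than RpL27, limma called 0 in any of 16 comparisons, and 18 of 400 values had an unadjusted p under 0.05. Among all 8264 tested genes such a p was far more common. It was found for 573 when temperature effects were compared between alleles, the fewest of the 16 comparisons. The most were 3611, in round-1 tumours against ts1 brains. The shares of all genes called are given with each comparison below. Both subunits are in these medians. In round-1 tumours the 16 plain large-subunit genes had array medians that averaged 14.26 ± 0.01 and the 10 small-subunit genes 14.33 ± 0.01 (SD, n = 3), against 14.13 ± 0.04 and 14.16 ± 0.03 in WT at IRB (SD, n = 3).

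**Figure D2:**
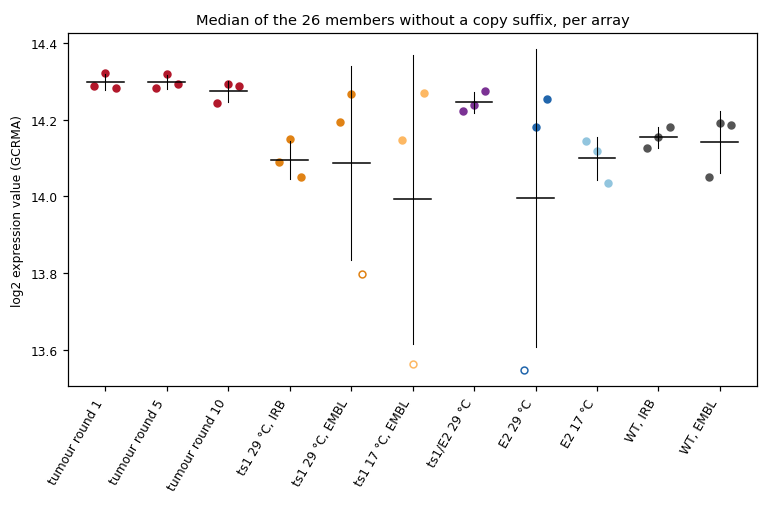
Median log2 value over the 26 members with a plain symbol, 1 point per array, by group and site, with the mean (horizontal bar) and SD (vertical line). The 9 tumour arrays lie between 14.24 and 14.32 and the 6 WT arrays between 14.05 and 14.19, while the 3 open points, the arrays with the weak 5′ signal, are at 13.80 or below.

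A gene was called when its adjusted p was under 0.05 and its log2 difference at least 1 in size, a 2-fold change. In round-1 tumours 2 members were called higher than WT, RpS5b and RpS19b, of 36 tested, while 12.7% of all genes were called higher and 14.3% lower. In round-5 tumours 3 were called, these and RpS10a, which passed the filter only through 3 tumour arrays and is near background in WT, with a background of 12.9% higher and 13.7% lower, and in round-10 tumours the 2 genes were again RpS5b and RpS19b, with 12.3% higher and 13.5% lower. No member was called lower in tumours by limma, and RpL27 was lower there with an adjusted p under 0.05 at a smaller size. RpS5b and RpS19b were called higher in ts1 brains at 29 °C over both sites together (background 2.96% higher, 4.39% lower) and at EMBL (3.69% higher, 3.07% lower), and RpS5b alone at IRB (3.11% higher, 5.68% lower). RpS5b was also called in ts1 brains at 17 °C (0.557% higher, 0.629% lower). In ts1/E2 brains RpS5b was called (3.34% higher, 2.53% lower). E2 brains at 29 °C had RpS5b and RpS19b called higher and RpL27 lower (3.98% higher, 5.08% lower). E2 brains at 17 °C had RpS5b higher and RpL27 lower (1.98% higher, 2.29% lower). These comparisons share the WT arrays.

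**Figure D3:**
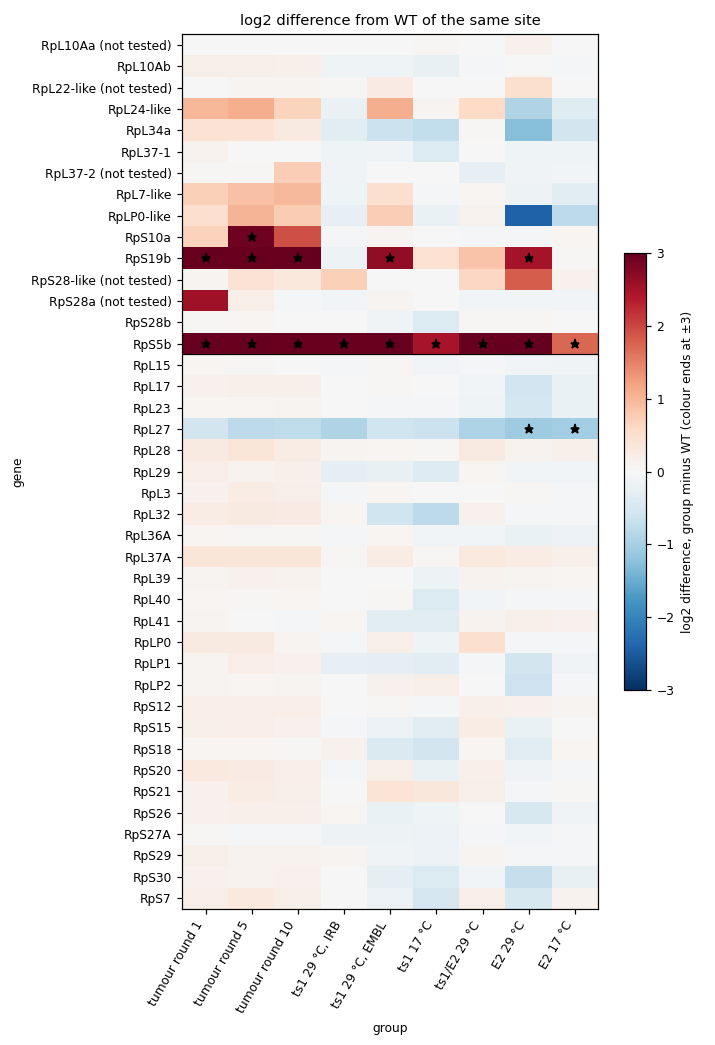
log2 difference of each of the 41 members from WT of the same site, in 9 comparisons (colour, red higher in the named group, ends at ±3), with stars on called genes and copies above the line. RpS5b carries a star in every column, RpS19b in 5, RpS10a in round 5 and RpL27 in both columns of E2 brains, while the other genes below the line have none.

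RpS5b codes for a small-subunit protein and is used mainly in ovaries. Its log2 values were 13.23, 13.33 and 13.25 in round-1 tumours, 13.15, 13.26 and 13.09 in round 5, and 13.19, 12.76 and 12.89 in round 10. In ts1 brains at 29 °C they were 11.80, 12.30 and 11.31 at IRB, and 14.31, 14.53 and 14.05 at EMBL. The ts1 brains at 17 °C, all at EMBL, had 9.96, 10.90 and 11.50. Tumours therefore varied little among themselves, and brains of the same genotype differed by temperature and by site.

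In ts1/E2 brains RpS5b was at 12.67, 12.59 and 12.91. In E2 brains it was at 11.08, 12.67 and 12.74 at 29 °C, the lowest on the array with the weak 5′ signal, and at 10.50, 9.77 and 9.82 at 17 °C. WT arrays were at 8.43, 7.96 and 8.53 at IRB, and at 7.73, 9.39 and 7.79 at EMBL. Every mutant brain and tumour array was above every WT array of both sites.

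The difference of RpS5b from WT was 4.97 ± 0.42 in round-1 tumours (SE, adjusted p = 1.08e-09), 4.86 ± 0.42 in round 5 (adjusted p = 1.12e-09) and 4.64 ± 0.42 in round 10 (adjusted p = 2.5e-09). In ts1 brains at 29 °C it was 4.74 ± 0.30 over both sites (adjusted p = 1.3e-11), in ts1/E2 brains 4.41 ± 0.42 (adjusted p = 3.74e-08) and in E2 brains at 29 °C 3.86 ± 0.42 (adjusted p = 4.05e-07). These calls held under every alternative tried. At 17 °C the differences were smaller. That of ts1 brains was 2.48 ± 0.42 (adjusted p = 0.00133) and was not called with a site term (adjusted p = 0.0949) or within EMBL alone (adjusted p = 0.116), the highest of 16 alternatives. That of E2 brains was 1.72 ± 0.42 (adjusted p = 0.016), and it was not called without E2 replicate 1 (adjusted p = 0.0824) or without WT replicate 2 (adjusted p = 0.0948), the highest of 17 alternatives.

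RpS5b was higher at 29 °C than at 17 °C in homozygotes of each allele. In ts1 brains of EMBL the mean was 14.30 at 29 °C against 10.79 at 17 °C, a difference of 3.51 ± 0.42 (adjusted p = 3.98e-06, and 0.172 with the replicate number as a block), and 2 members were called higher, RpS5b and RpS19b, with a background of 1.74% higher and 0.52% lower. In E2 brains the mean was 12.16 at 29 °C against 10.03 at 17 °C, a difference of 2.13 ± 0.42 (adjusted p = 0.00163), and the same 2 genes were called (background 3.33% higher, 3.19% lower). The temperature effect of ts1 minus that of E2 was 1.38 ± 0.59 for RpS5b (adjusted p = 0.689), and 0 members were called by limma in that comparison, 1 at an unadjusted p under 0.05 (background 0.242% higher, 0.133% lower). The ts1 arrays of that comparison are all from EMBL and the E2 arrays all from IRB, so allele and site cannot be told apart in it.

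Round-1 tumours had more RpS5b than the ts1 brains at 29 °C of the same site, with means of 13.27 and 11.80, a difference of 1.47 ± 0.42 (adjusted p = 0.00842). This call ended with a site term (0.85, adjusted p = 0.232) and without ts1 replicate 6 (adjusted p = 0.0589). Here 2 members were called higher, RpS5b and RpS19b, with 15.5% of all genes higher and 10.6% lower. The ts1 brains at 29 °C of EMBL, at 14.30 ± 0.24, stood above all tumour groups, and their difference from WT exceeded that of IRB. IRB minus EMBL was −2.49 ± 0.59 (adjusted p = 0.0163), and it was not called without ts1 replicate 6 (adjusted p = 0.0578, the highest of 20 alternatives) or without WT replicate 6 (adjusted p = 0.0543). In this comparison 2 members were called lower, RpS5b and RpS19b, with 1.09% of all genes higher and 2.59% lower. In order of level the groups ran ts1 29 °C at EMBL, round 1, round 5, round 10, ts1/E2, E2 29 °C, ts1 29 °C at IRB, ts1 17 °C, E2 17 °C and WT. Neighbours in this order were nearer than the larger of their SDs from round 5 to round 10, from ts1/E2 to E2 at 29 °C, from there to ts1 29 °C at IRB, and from ts1 17 °C to E2 17 °C.

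RpS19b codes for another small-subunit protein, the paralog of RpS19 found mainly in the germ line. In round-1 tumours its log2 values were 8.77, 9.03 and 7.89, in round 5 7.94, 8.36 and 7.9953, and in round 10 8.59, 6.80 and 8.15. In ts1 brains at 29 °C they were 5.21, 3.47 and 4.78 at IRB, and 7.95, 7.04 and 6.88 at EMBL. The ts1 brains at 17 °C had 5.42, 4.94 and 4.93. All tumour arrays were above all brain arrays of IRB except those of E2 at 29 °C, and the ts1 brains at 29 °C split by site with no overlap.

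In ts1/E2 brains RpS19b was at 5.72, 4.97 and 5.76, in E2 brains at 29 °C at 7.38, 7.68 and 6.30, and in E2 brains at 17 °C at 3.78, 4.66 and 5.58. WT arrays were at 3.98, 4.68 and 5.24 at IRB, and at 4.67, 4.61 and 4.62 at EMBL. Against WT of their site, the E2 brains at 17 °C, the ts1/E2 brains and the ts1 brains of IRB overlapped, and the other groups did not.

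RpS19b was higher than WT by 3.93 ± 0.50 in round-1 tumours (adjusted p = 9.5e-07), 3.46 ± 0.50 in round 5 (adjusted p = 5.15e-06) and 3.21 ± 0.50 in round 10 (adjusted p = 1.51e-05). In brains it was higher by 2.66 ± 0.50 in ts1 at 29 °C of EMBL (adjusted p = 0.000974) and by 2.49 ± 0.50 in E2 at 29 °C (adjusted p = 0.00197). These 5 calls held under every alternative tried. In ts1 brains of IRB the difference was −0.15 ± 0.50 (adjusted p = 0.921), with a value of 0.14 after centring each array, and in ts1/E2 brains it was 0.85 ± 0.50 (adjusted p = 0.374). Over both sites together ts1 brains at 29 °C were higher by 1.26 ± 0.36 (adjusted p = 0.0203), a mean of unlike sites that 5 of 21 alternatives did not call. These were quantile normalization (adjusted p = 0.0993, the highest), a site term (0.0757) and the fits without ts1 replicate 1 (0.0625), ts1 replicate 4 (0.0642) or WT replicate 1 (0.0708). IRB minus EMBL was −2.80 ± 0.71 (adjusted p = 0.024), and 6 of 20 alternatives did not call it. These were centring (adjusted p = 0.0682) and the fits without ts1 replicate 1 (0.0759, the highest), WT replicate 2 (0.0566), 3 (0.0654), 5 (0.0582) or 6 (0.052).

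The warm and cold brains differed in RpS19b too. In ts1 brains of EMBL the mean was 7.29 at 29 °C against 5.09 at 17 °C, a difference of 2.20 ± 0.50 (adjusted p = 0.0134). Of 17 alternatives 6 did not call it, with adjusted p up to 0.318 under a site term, 0.0902 without ts1 at 29 °C replicate 1 and 0.0608 without ts1 at 17 °C replicate 2. It was 0.103 with the replicate number as a block, 0.0566 without ts1 at 17 °C replicate 3 and 0.0554 without a fixed list of 5 arrays, named with RpL24-like below. In E2 brains the mean was 7.12 at 29 °C against 4.67 at 17 °C, a difference of 2.45 ± 0.50 (adjusted p = 0.00269), called under all 17 alternatives. Round-1 tumours exceeded the ts1 brains of IRB by 4.08 ± 0.50 (adjusted p = 9.75e-07), and round 10 minus round 1 was −0.72 ± 0.50 (adjusted p = 0.577). Between round 10 and round 1 limma called 0 members, with 0 at an unadjusted p under 0.05 (background 1.73% higher, 4.17% lower).

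Germ-line markers also differed between the groups. Over 8 genes (vas, nanos, piwi, aub, bam, bgcn, zpg and osk) the mean log2 level per array ran from 7.77 to 8.72 in round 1, 7.62 to 7.86 in round 5 and 5.88 to 7.73 in round 10. It ran from 4.63 to 5.42 in ts1 brains at 29 °C of IRB, 6.97 to 7.79 in those of EMBL, 3.77 to 4.11 in ts1 brains at 17 °C, 7.04 to 7.38 in ts1/E2, 6.99 to 7.16 in E2 at 29 °C, 3.69 to 4.14 in E2 at 17 °C and 3.16 to 3.46 in WT. Of the 8 genes, 7 were called higher than WT in round 1, 7 in round 5, 6 in round 10, 6 in ts1 at 29 °C of EMBL, 2 at IRB, 6 in ts1/E2 and 6 in E2 at 29 °C. Of all genes, 12.7%, 12.9%, 12.3%, 3.69%, 3.11%, 3.34% and 3.98% were called higher in that order. The WT means of vas, nanos, bam, bgcn, zpg and osk lay under 4, from 2.14 to 3.84. These genes passed the filter mainly through mutant or tumour arrays. Calls of them rest on the values that admitted them, against a WT level near background. Genes with a group mean over 4 numbered 8 of 8 in round 1, 3 in ts1 at 17 °C, 4 in E2 at 17 °C and 2 in WT. By limma 0 of the 8 were called at 17 °C with either allele, where RpS5b was called. With each allele 1 of the 8 had an unadjusted p under 0.05. Of all genes, 0.557% were called higher in ts1 and 1.98% in E2 at 17 °C. In ts1 brains at 17 °C bam was at 6.32, 6.86 and 5.65, against 3.08, 2.52 and 3.15 in WT of EMBL. The median difference of the 8 genes there was 0.09. In ts1/E2 brains 6 of the 8 were called while RpS19b was not. The part of germ-line cells in these values was not tested.

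RpS10a, the paralog of RpS10 used in the testis, was near background on most arrays. Its log2 values were 3.21, 3.59 and 2.32 in round-1 tumours, 3.14, 5.79 and 6.92 in round 5, and 7.42, 3.09 and 2.38 in round 10. In mutant brains they ran from 2.25 to 2.66, and in WT from 2.30 to 2.45. Only 3 of 33 arrays passed a value of 4, in 2 groups, and the gene entered the test through them, so its call in round 5 rests on the values that admitted it, against a WT level near background. That call was lost without replicate 3. In round 10 the tumours overlapped WT and RpS10a was not called. Over 8 testis genes the mean level per array ran from 5.35 to 5.64 in round 1, 5.32 to 5.61 in round 5, 5.14 to 5.38 in round 10 and 3.06 to 3.37 in WT. Of 6 tested testis genes, 3 were called higher in each round, and 1, 0 and 1 lower in rounds 1, 5 and 10. All genes were called higher at 12.7%, 12.9% and 12.3% in that order, and lower at 14.3%, 13.7% and 13.5%. The WT means of the testis genes topi and TrxT, 2.26 and 2.68, are likewise near background. The part of testis-type expression in RpS10a was not tested.

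**Figure D4:**
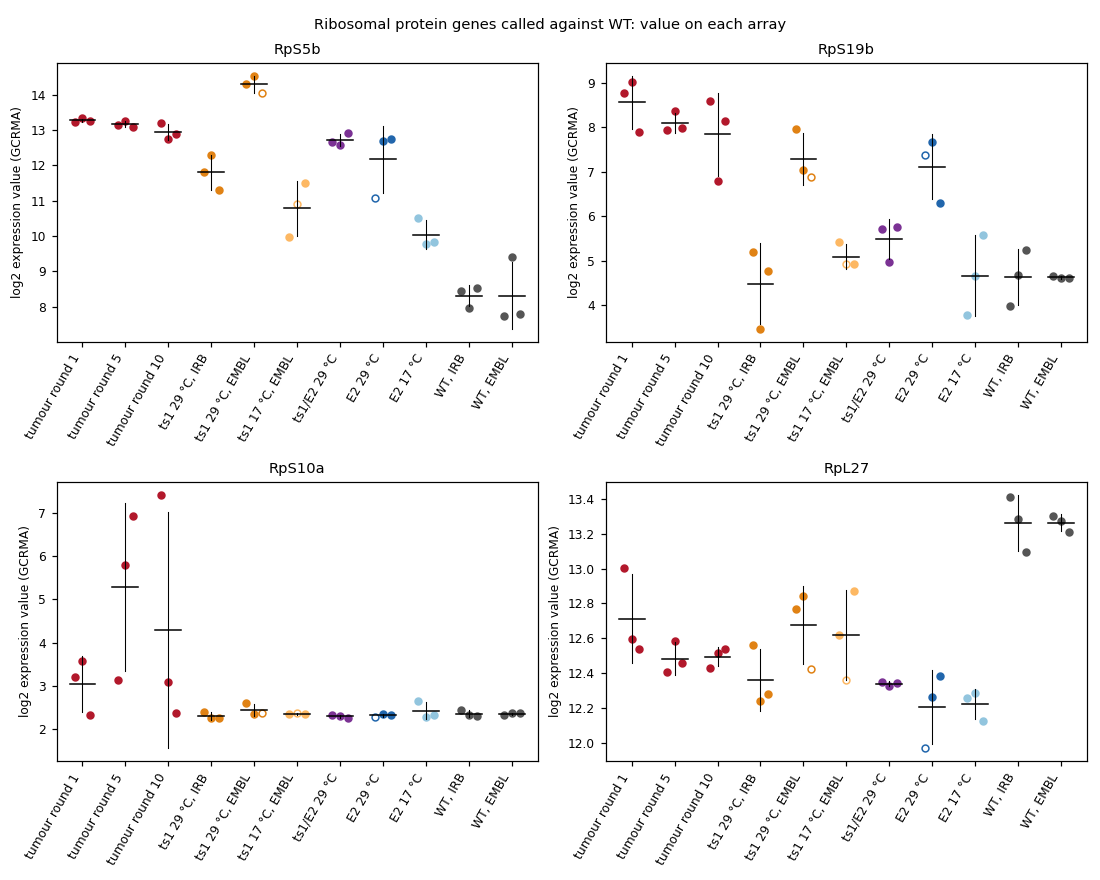
log2 value on each array of the 4 members called against WT, by group and site, with the mean (horizontal bar) and SD (vertical line). RpS5b lies above WT in every mutant group, RpS19b in tumours, the ts1 brains at 29 °C of EMBL and the E2 brains at 29 °C, RpS10a passes 4 on 3 tumour arrays, and RpL27 stands lower in all mutant groups than in WT. Open points are arrays with the weak 5′ signal.

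The 5 members below the filter were RpL10Aa, RpL22-like, RpL37-2, RpS28-like and RpS28a. RpS28a, a testis paralog of RpS28, had values of 3.61, 5.75 and 5.40 in round-1 tumours, 2.30, 3.07 and 2.27 in round 5, and 2.29, 2.34 and 2.29 in round 10, and it stayed at 2.58 or below in mutant brains and at 2.53 or below in WT. The 3 round-1 arrays were above all other arrays, whose values are near background, and no fold or test is given for them. On the same round-1 arrays the yolk protein gene Yp1, made by the fat body of adult females, was at 11.94, 11.29 and 9.90. It was at 6.22, 3.19 and 3.91 in round 5, at 5.43, 8.63 and 8.69 in round 10, and at 3.13 to 4.66 in WT. The 3 yolk genes had a mean level of 5.77 to 10.60 in round 1, 2.65 to 3.78 in round 5, 3.61 to 6.28 in round 10 and 2.55 to 3.11 in WT, and their part in the RpS28a values was not tested. RpS28-like was at 7.48 on E2 brains at 29 °C replicate 1 and at 4.10 or below elsewhere. RpL37-2 passed 4 once, at 4.43 on round-10 replicate 1, the array with the highest RpS10a value. RpL22-like and RpL10Aa reached at most 3.83 and 2.64, both on E2 brains at 29 °C replicate 1.

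RpL27, a large-subunit protein, was below WT in every mutant group. Its log2 values were 13.005, 12.60 and 12.54 in round-1 tumours, 12.41, 12.59 and 12.46 in round 5, and 12.43, 12.51 and 12.54 in round 10. In ts1 brains at 29 °C they were 12.56, 12.24 and 12.28 at IRB and 12.77, 12.84 and 12.42 at EMBL, and at 17 °C 12.62, 12.36 and 12.87. All of these were under the WT arrays, at 13.41, 13.29 and 13.09 at IRB and 13.30, 13.28 and 13.21 at EMBL.

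In ts1/E2 brains RpL27 was at 12.35, 12.32 and 12.35, in E2 brains at 29 °C at 11.97, 12.26 and 12.38, and in E2 brains at 17 °C at 12.26, 12.29 and 12.12. The difference from WT was −1.06 ± 0.16 in E2 brains at 29 °C (adjusted p = 8.58e-05) and −1.04 ± 0.16 in E2 brains at 17 °C (adjusted p = 0.000201), just past the size of 1 that a call needs. It fell under that size in 7 of 17 alternatives at 29 °C and in 4 of 17 at 17 °C, with adjusted p at most 0.00888 and 0.00306. The other groups were lower by less than 1. The differences were −0.93 ± 0.16 in ts1/E2 (adjusted p = 0.000436), −0.75 ± 0.12 in ts1 at 29 °C over both sites (adjusted p = 6.82e-05) and −0.65 ± 0.16 in ts1 at 17 °C (adjusted p = 0.0442). By site, ts1 at 29 °C differed from WT by −0.90 ± 0.16 at IRB (adjusted p = 0.000668, passing in all 15 alternatives) and by −0.59 ± 0.16 at EMBL (adjusted p = 0.0235). At EMBL 5 of 15 alternatives did not pass, with adjusted p of 0.123 without replicate 3, the highest, 0.0684, 0.0715 and 0.0552 without WT replicates 4, 5 and 6, and 0.0551 with the arrays of EMBL alone. The value of ts1 at 17 °C passed in 8 of 16 alternatives. Adjusted p rose to 0.277 without replicate 2, 0.0542 without replicate 1 and 0.118, 0.136 and 0.127 without WT replicates 4, 5 and 6. In tumours the differences were −0.55 ± 0.16 in round 1 (adjusted p = 0.0104, with 0.0618 without replicate 3 and 0.0573 without WT replicate 1, the highest of 17 alternatives), −0.78 ± 0.16 in round 5 (adjusted p = 0.000498) and −0.77 ± 0.16 in round 10 (adjusted p = 0.000602).

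RpL27 did not follow temperature as RpS5b and RpS19b did. In ts1 brains of EMBL 29 °C minus 17 °C was 0.06 ± 0.16 (adjusted p = 0.9999), and in E2 brains it was −0.02 ± 0.16 (adjusted p = 0.971). Round-1 tumours minus ts1 brains of IRB was 0.35 ± 0.16 (adjusted p = 0.0993). Under quantile normalization and under centring the sign against WT stayed negative in every group, from −0.44 in round 1 to −1.07 in E2 brains at 17 °C under the first and from −0.49 to −0.93 in these groups under the second.

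The relatives of assembly factors were at their highest in tumours and in the ts1 brains of EMBL. RpL7-like had log2 values of 12.22, 12.29 and 12.25 in round 1, 12.44, 12.43 and 12.42 in round 5, and 12.52, 12.52 and 12.46 in round 10, against 11.45, 11.58 and 11.59 in WT of IRB. Tumours did not overlap WT. The share of all tested genes with no such overlap was not counted, so it cannot be read as particular to RpL7-like. The difference from WT was 0.72 ± 0.29 in round 1 (adjusted p = 0.0543), 0.89 ± 0.29 in round 5 (adjusted p = 0.0172, and 0.0563 without WT replicate 1, the highest of 17 alternatives) and 0.96 ± 0.29 in round 10 (adjusted p = 0.0105), all under the size of a call. Round 1 minus ts1 brains of IRB was 0.85 ± 0.29 for RpL7-like (adjusted p = 0.0233), and 6 of 16 alternatives did not pass, with adjusted p up to 0.141 without ts1 replicate 6.

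RpL24-like was at 12.56, 12.73 and 12.51 in round 1, 12.74, 12.71 and 12.66 in round 5 and 12.33, 12.36 and 12.15 in round 10, against 11.62, 11.57 and 11.65 in WT of IRB. These arrays did not overlap WT either, again with no count over all tested genes. The differences were 0.98 ± 0.56, 1.09 ± 0.56 and 0.66 ± 0.56 in that order of rounds (adjusted p = 0.188, 0.142 and 0.413), and none passed. In E2 brains at 29 °C it was at 8.22, 11.77 and 12.12, and the low value was on the array with the weak 5′ signal. In 1 alternative a fixed list of 5 arrays was left out, and 5 members were called in round-5 tumours in place of 3. RpL24-like and RpLP0-like were added. The 5 are the 3 arrays with the weak 5′ signal, ts1 at 29 °C replicate 6 and E2 at 17 °C replicate 2. The last 2 had the lowest median correlation within their group and site, 0.90 and 0.94. E2 brains at 29 °C replicates 2 and 3, at 0.85 and 0.87, were kept, so no single cutoff gives this list.

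RpLP0-like was at 10.82, 10.42 and 9.99 in round 1, 10.95, 11.0025 and 10.87 in round 5 and 10.46, 10.77 and 10.77 in round 10, against 9.95, 9.92 and 9.86 in WT of IRB. In E2 brains at 29 °C it was at 2.98, 9.54 and 9.92. The mean difference there was −2.43 ± 0.97 (adjusted p = 0.0901), with the array of the weak 5′ signal far below the other 2. RpL34a, a large-subunit protein, showed the same arrays apart. It was at 8.72, 9.59 and 9.96 on the 3 arrays with the weak 5′ signal and at 11.72 to 12.86 on the other 30. Of the 41 members, 10 had exactly these 3 arrays as their lowest, among them RpL28, RpL32, RpS15, RpS18, RpS26, RpS30 and RpS7. The same count was not made over all tested genes, so it cannot be read as particular to the members.

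**Figure D5:**
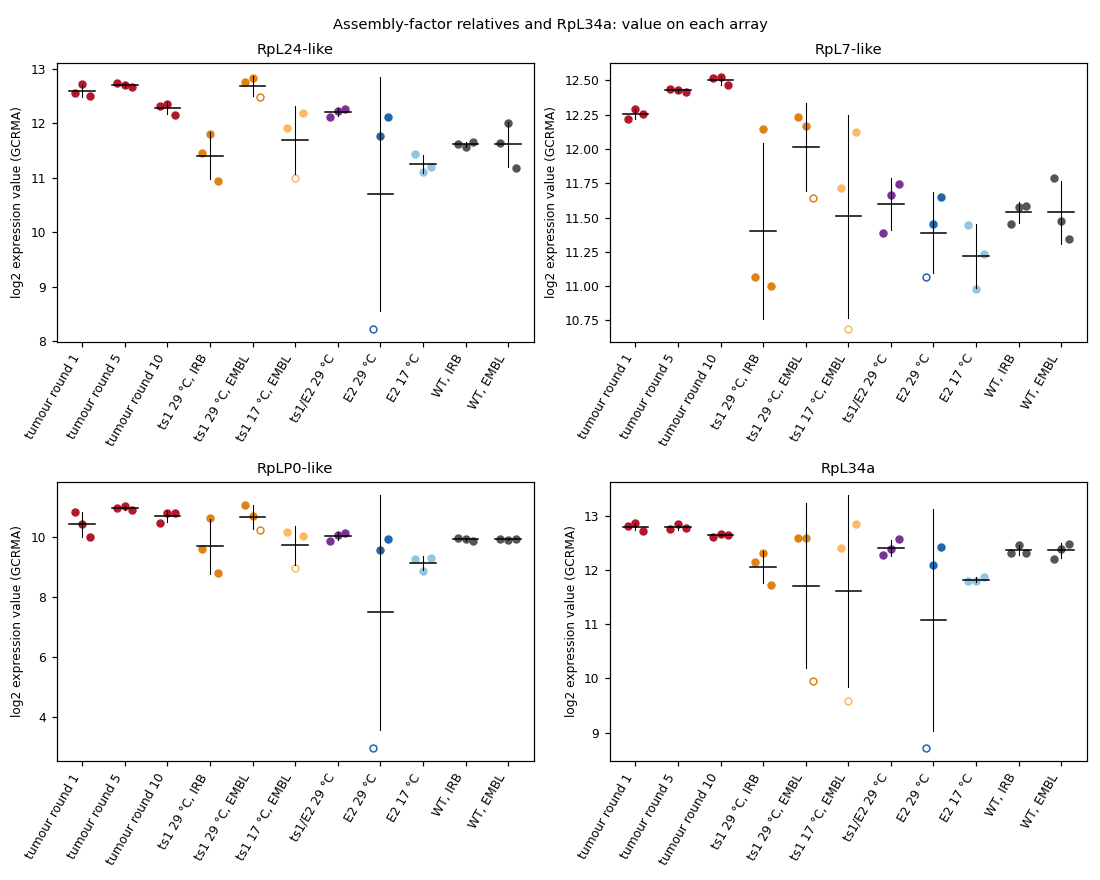
log2 value on each array of RpL24-like, RpL7-like, RpLP0-like and RpL34a, by group and site, with the mean (horizontal bar) and SD (vertical line). The 9 tumour arrays lie above the 3 WT arrays of their site in all 4 panels, and RpL34a is at 9.96 or below on the 3 open points, the arrays with the weak 5′ signal. The share of all tested genes with such a separation of tumours from WT was not counted.

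For 4 members the annotation holds more than 1 probe set, and they did not always agree. RpL3, a large-subunit protein, averaged 13.80 on the probe set used and 7.85 on another. That other set was lowest in E2 brains at 29 °C (5.56) and highest in round-5 tumours (9.33), while the set used was at 13.77 and 13.97 there. RpS29 averaged 14.20 on the set used and 13.94 on another, which had a mean of 12.67 in ts1 brains at 17 °C against 14.12 in WT. The remaining probe sets of RpL3, RpS29, RpS30 and RpS7 averaged 3.85 or less. Of the 41 probe sets used, 14 carry the suffix that Affymetrix gives to sets matching several transcripts, and none of those for RpS5b, RpS19b, RpS10a and RpL27 does. Cross-hybridisation between a gene and its copies was not tested.

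The genes most like each of the 3 members called in several comparisons were taken as the 3 highest Pearson correlations over the 11 group-by-site means, among all tested genes. The WT means of both sites are equal in these data, and tumour rounds share their origin. For RpS5b they were tej, a Tudor-domain gene of the piRNA pathway (r = 0.983), mia, a testis TAF gene (r = 0.978), and CG14864 (r = 0.957). The level of tej was 9.61 in round 1 and 9.84 in ts1 brains at 29 °C of EMBL, against 4.52 in WT. For RpS19b they were CG11674 (r = 0.972), png, which codes for an egg-activation kinase (r = 0.971), and nanos, a translational repressor of the germ line (r = 0.963). nanos was at 3.13 in ts1 brains at 29 °C of IRB and at 7.79 in those of EMBL, against 3.09 in WT. For RpL27 they were Ctr9, a subunit of the Paf1 transcription elongation complex (r = 0.935), Tektin-C, a protein of sperm flagella (r = 0.931), and Aatf (r = 0.907). Tektin-C was at 3.78 or below in every mutant group and at 10.43 in WT.

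Of 35 ribosome biogenesis genes, 2 were called higher in round 1, 4 in round 5 and 4 in round 10, and 0 lower. These shares are below those of all genes called higher, 12.7% in round 1, 12.9% in round 5 and 12.3% in round 10. Non1, a nucleolar GTPase, was higher by 1.86 ± 0.35 in round 1, and Rbm13, the fly counterpart of yeast MAK16, by 2.52 ± 0.46. Fib, the methyltransferase fibrillarin, was higher by 1.45 ± 0.32 in round 5 and by 1.12 ± 0.32 in round 10, and mbm, a nucleolar protein of neuroblasts, by 1.15 ± 0.38 and 1.01 ± 0.38. The list's median difference was 0.39, 0.63 and 0.62 in the order of rounds, beside −0.01, 0.09 and 0.09 over all tested genes. Rbm13 was also called in ts1 brains at 29 °C (2.30 ± 0.33), in ts1 brains at 17 °C (1.98 ± 0.46) and in E2 brains at 29 °C (1.55 ± 0.46). In E2 brains at 17 °C RIOK1, a kinase of late small-subunit maturation, was called lower by −3.10 ± 0.80 and mbm by −1.30 ± 0.38.

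Of 9 genes of RNA polymerase I and rRNA transcription, 3 were called higher in round 1, 4 in round 5 and 1 in round 10, beside 12.7%, 12.9% and 12.3% of all genes. The round-10 count is near that share. udd, a factor of rRNA gene transcription in germ-line stem cells, was higher by 1.09 ± 0.22, 1.32 ± 0.22 and 1.55 ± 0.22 in that order. Polr1A, the largest polymerase I subunit, was higher by 1.29 ± 0.47 in round 1 and 1.29 ± 0.47 in round 5. Of 33 tested translation factors, 1, 2 and 1 were called higher and 1, 1 and 1 lower in rounds 1, 5 and 10. These shares are below those of all genes, 12.7%, 12.9% and 12.3% higher and 14.3%, 13.7% and 13.5% lower. Among them eIF4E6, a cap-binding protein, was called higher in each tumour group and in the brains at 29 °C of EMBL, E2 and ts1/E2, by 3.88 ± 0.81 to 5.64 ± 0.81. eEF1alpha2, an elongation factor isoform, was lower by −1.15 ± 0.27 in round 1, −1.70 ± 0.27 in round 5 and −2.52 ± 0.27 in round 10.

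Among 69 mitochondrial ribosomal protein genes, 0 were called by limma in round 1 (5 at an unadjusted p under 0.05) and 1, mRpL45, in rounds 5 (1.03 ± 0.25) and 10 (1.12 ± 0.25). In ts1 brains at 29 °C of IRB 5 were called lower, beside 5.68% of all genes, a like share, and mRpS14 led with −2.73 ± 0.77. Against these same brains, 16 were called higher in round-1 tumours, beside 15.5% of all genes. Of 18 tested genes of Myc and TOR growth control, foxo, a transcription factor held back by insulin signalling, was higher by 1.81 ± 0.47, 2.51 ± 0.47 and 2.76 ± 0.47 in rounds 1, 5 and 10, and REPTOR, a transcription factor held back by TOR, by 1.74 ± 0.51, 1.91 ± 0.51 and 1.92 ± 0.51. In all, 3, 5 and 4 genes of this list were called higher and 0, 0 and 1 lower in those rounds, beside 12.7%, 12.9% and 12.3% of all genes higher and 14.3%, 13.7% and 13.5% lower, and the round-1 count is near that share. Of 8 genes of the response to missing ribosomal proteins, p53 was higher by 1.75 ± 0.28, 1.70 ± 0.28 and 1.51 ± 0.28 and Irbp18, a bZIP partner of Xrp1, by 1.13 ± 0.28, 1.08 ± 0.28 and 1.14 ± 0.28, with 2, 2 and 3 genes called higher and 0 lower, beside the same shares. Of 11 other ribosome-associated protein genes limma called 0 in tumours, with 1 at an unadjusted p under 0.05 in round 1, 2 in round 5 and 0 in round 10. In E2 brains at 29 °C 3 of the 11 were called lower, beside 5.08% of all genes. That group holds replicate 1, an array with the weak 5′ signal.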

How the data were processed

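Total RNA from 33 samples was hybridised to Affymetrix Drosophila arrays. Per the labels and the submitters' processing notes, the deposited values are log2 values made by the authors with GCRMA; its version and settings are not given in the sources used here. Per the deposited values, each site had been centred on WT, a step no label describes, so the spread of WT holds none between sites, which can make its p-values too small. Depth does not apply to arrays, and the number per group, 3 or 6, limits the precision.

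Each gene took the probe set with the highest mean among the 13647 annotated to it alone. The 402 probe sets with several genes, 4720 unlisted and 183 control sets were not used. The 8264 genes above 4 in 3 or more arrays were fitted with limma 3.58.1 in R 4.3.3 as 11 group-by-site cells, with empirical Bayes moderation and Benjamini-Hochberg adjustment over all of them, two-sided. A call needed an adjusted p under 0.05 and a log2 difference of at least 1. The fit was also run on simulated data with independent normal noise for each gene. That setting has no arrays of weak 5′ signal and no centring on WT, so it does not test their effect. Errors of differences are SEs of this fit, and p-values measure only the spread between samples. Members called in several comparisons with WT, or among the 3 largest called in 1, are given in every sample. Of listed genes up to 4 called ones per list and comparison could be named.

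The members, gene lists, rules and alternatives were chosen with earlier results of these data known. The temperature effect of ts1 against E2 and the counts by scaling were added after seeing the data. Replicate numbers were checked for pairing: in 0 of 22 pairs of groups did every same-numbered pair correlate above 0.1, so they were not used as pairs. No sequence is shown, since no sequence table was used here.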

Additional observations from a re-analysis of the deposited data

Results flagged for a closer look

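The effect of ts1 at 29 °C against WT differed between the sites for RpS19b (IRB minus EMBL −2.80 ± 0.71, adjusted p = 0.024, up to 0.0759 over 20 alternatives) and for RpS5b (−2.49 ± 0.59, adjusted p = 0.0163, up to 0.0578 over 20 alternatives), by the interaction term of the limma fit. All 3 arrays of EMBL were above all 3 of IRB for both genes.

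A sample stood far from the rest of its group in 3 of 24 groups of values, by a gap test that chance passes in about 1 of 20. RpL34a was at 9.96 on ts1 brains at 29 °C replicate 3, against 11.72 to 12.59 on the other 5 arrays, and this array had the weak 5′ signal. RpS28a was at 2.53 on WT replicate 1, against 2.30 to 2.38. RpS28-like was at 2.10 on the same WT array, against 2.71 to 3.03. The last 2 are values near background.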

How the results depend on the processing

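Of 552 recomputed counts of called members and median differences, 510 stayed within 1.5 times the count or within the spread of replicates, and of 699 recomputed single-gene differences 617 kept their side of the threshold, 82 lost it and 0 changed sign. A site term with 9 groups gave 1 member called for ts1 at 29 °C against WT in place of 2, 0 for ts1 at 17 °C, 1 for E2 at 17 °C, 5 for round 5, 4 for round 10, 1 for ts1 at 29 °C against 17 °C and 1 for round 1 against ts1. The arrays of EMBL alone gave 0 for ts1 at 17 °C. Quantile normalization gave 1 for ts1 at 29 °C. Centring each array gave 1 for E2 at 17 °C and 1 for the site difference, and moved the median difference of the 41 members to 0.26 in ts1 at 29 °C of IRB, 0.20 in E2 at 29 °C and 0.30 in the site difference. Array weights gave 2 for ts1/E2, 5 for round 5, 4 for round 1 against ts1 and 5 for the site difference. Leaving out the fixed list of 5 arrays gave 5 for round 5 and 1 for ts1 at 29 °C against 17 °C. With no filter on low values the count was 1 for round 10 against round 1, through RpS28a. That gene was likewise added for round 1 against WT and against ts1 brains. RpS28a is near background outside round 1, so these counts are not used as a test of it. The replicate block gave 0 for ts1 at 29 °C against 17 °C and changed no other call, though the numbers do not pair the samples. The cause of these changes was not tested.

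Leaving out 1 array at a time, the count ran from 1 to 2 for ts1 at 29 °C against WT, 1 to 2 at IRB, 1 to 2 for E2 at 17 °C, 2 to 5 for E2 at 29 °C, 1 to 2 for ts1/E2, 1 to 2 for ts1 at 29 °C against 17 °C, 1 to 3 for round 1 against ts1 and 0 to 2 for the site difference. The 5 in E2 brains came without replicate 3, with RpL24-like and RpLP0-like called lower. Background correction could not be varied, since no scanner files were used here, and the block could not be fitted where replicate numbers are not shared. Signal near background limits RpS10a, RpS28a and the other members below the filter.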
